A study of Homo sapiens with 8 samples.

Results

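The specific and gelatinase granule genes examined here are 10 human genes, LTF, CAMP, LCN2, CRISP3, BPI, MMP8, MMP9, PGLYRP1, CEACAM8 and OLFM4. They were picked by symbol, BPI among them although it is classically an azurophil protein, with earlier results of these data known. All 10 symbols were found in the first column of the 8 count tables, among 56470 names listed for the untreated libraries, 56609 listed for the ATRA-treated libraries and 37526 common to both. In control cells 5 of them were practically absent, 4 were switched on by all-trans retinoic acid (ATRA) and MMP9 was switched down. In KDM3B knockdown cells 3 of those 4 were also higher with ATRA. CAMP, with 1 and 4 counts without ATRA and 4 and 5 with it, did not pass the filter on low counts there.

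Neutrophil precursors build their granules in waves. Azurophil granules form in promyelocytes, specific granules in myelocytes and metamyelocytes, and gelatinase granules in later cells, and each protein is sorted to a granule largely by when its gene is transcribed. Transcription factors of the C/EBP family, C/EBPε above all, together with PU.1 drive the specific granule genes. In acute promyelocytic leukaemia (APL) the PML/RARα fusion holds cells at the promyelocyte stage, and ATRA releases that block. Of the 10 genes, LTF (lactoferrin, which binds iron), CAMP (the cathelicidin antimicrobial peptide), LCN2 (a lipocalin that captures bacterial siderophores), CRISP3 (a cysteine-rich secretory protein), MMP8 (neutrophil collagenase), CEACAM8 (a membrane glycoprotein, CD66b) and OLFM4 (olfactomedin) belong to specific granules, and PGLYRP1 (a peptidoglycan recognition protein) is also stored there. MMP9 (gelatinase B) marks gelatinase granules. BPI, which binds the lipopolysaccharide of bacteria, is classically a protein of azurophil granules.

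The sequenced RNA came from 4 groups of 2 libraries of NB4 cells, a line derived from APL that carries PML/RARα. The shNC cells were stably transduced with the control form of a lentiviral pLVX-shRNA2-puro vector, which the labels describe as empty and the study's methods as holding a scrambled hairpin. The shKDM3B cells stably expressed a short hairpin RNA against KDM3B, a demethylase of histone H3 lysine 9. The methods name more than one target sequence, and which of them these cells carried is not given in the sources used here. Both lines were collected in regular medium, a stage the labels call undifferentiated, or with 1 µM ATRA, labelled differentiated (shNC_ATRA and shKDM3B_ATRA). The labels give 24 or 48 h for ATRA without saying which applied. Nothing states whether the replicates were separate cultures, so that p-values measure the spread between these libraries, which may be technical. The question for these genes was which of them NB4 cells express, how they respond to ATRA and how that depends on KDM3B.

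KDM3B itself stood at 189 CPM (counts per 1000000 counts on genes) in both shNC libraries and at 76.4 and 85.0 CPM in the shKDM3B libraries. Under ATRA it was 190 and 113 CPM in shNC_ATRA and 51.3 and 55.3 CPM in shKDM3B_ATRA, so that the groups did not overlap. Its log2 fold change was -1.21 without ATRA (adjusted p = 0.0680, edgeR) and -1.53 with it (adjusted p = 0.502, edgeR). Between 9708739 and 33017787 counts fell on genes per library. Reads outside genes made up 8.49 to 9.62% of the untreated libraries and 9.36% of shNC_ATRA replicate 1, but 50.02 to 51.4% of the other 3 ATRA libraries. Of the 7 promyelocyte markers, MPO, CTSG and CD33 were expressed, and ELANE, which defines these cells, was at or near 0 in every group. Summed levels of the 7, most of them MPO, were 4499 to 5575 CPM in shNC, 8563 to 9598 in shKDM3B, 660 to 816 in shNC_ATRA and 2240 to 3153 in shKDM3B_ATRA. Of 6 monocyte markers, 4 or 5 had more than 3 counts in each group and CD163 had 0, and their sums were 38.7 to 40.2, 18.2 to 30.6, 66.9 to 113 and 16.2 to 27.9 CPM in the same order. Among the erythroid markers, HBA1, HBB and HBG1 were at 0 throughout and ALAS2 had 0 and 2 counts in shNC_ATRA, 7 and 3 in shKDM3B_ATRA and 0 elsewhere, and of 6 lymphoid markers MS4A1 was at 0. The lymphoid sums were 40.2 to 52.5, 23.6 to 28.7, 53.3 to 69.3 and 27.9 to 38.1 CPM in the same order, and NKG7 was called lower with the knockdown both without and with ATRA, as was CD79A with ATRA. The part of these differences in the results was not tested.

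Promoter sequences from RefSeq (GRCh38.p14) were on hand for 7 of the 10 genes, and stretches are shown for 3 genes that ATRA switched on and for LTF, which stayed at or near 0. They run 5′ to 3′ on the strand of the gene and end at the base before the RefSeq start or, where GENCODE v44 draws an exon further upstream, 30 bases into that exon. Capitals mark matches to TTNNGCAA, the core letters of a C/EBP element, or to GAGGAAG, those of a PU.1 element, read on either strand.
CRISP3: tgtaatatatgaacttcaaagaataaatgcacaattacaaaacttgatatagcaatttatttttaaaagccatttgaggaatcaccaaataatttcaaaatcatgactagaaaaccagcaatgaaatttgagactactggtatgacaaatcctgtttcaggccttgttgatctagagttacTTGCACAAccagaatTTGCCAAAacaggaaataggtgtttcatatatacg
MMP8: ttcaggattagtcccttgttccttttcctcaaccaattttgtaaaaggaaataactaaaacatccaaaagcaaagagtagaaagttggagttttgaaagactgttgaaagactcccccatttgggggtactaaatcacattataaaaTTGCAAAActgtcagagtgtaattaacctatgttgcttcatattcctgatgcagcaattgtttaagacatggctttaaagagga
CAMP: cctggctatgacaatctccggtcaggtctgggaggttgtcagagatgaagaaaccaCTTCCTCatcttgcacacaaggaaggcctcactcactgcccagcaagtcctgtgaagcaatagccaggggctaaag
LTF: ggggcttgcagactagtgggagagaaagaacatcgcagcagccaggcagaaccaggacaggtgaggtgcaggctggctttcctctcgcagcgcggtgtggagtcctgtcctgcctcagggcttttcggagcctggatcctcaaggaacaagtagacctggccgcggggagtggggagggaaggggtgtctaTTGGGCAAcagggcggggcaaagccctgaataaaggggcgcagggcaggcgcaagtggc

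The CRISP3 stretch of 231 bases (chr6:49744408-49744638, minus strand) held 2 C/EBP matches, TTGCACAA beginning 69 bases and TTGCCAAA beginning 54 bases before the start. The MMP8 stretch (chr11:102724974-102725204, minus strand) held 1 such match, TTGCAAAA, 103 bases before the start. The CAMP stretch (chr3:48223245-48223376, plus strand) held 1 PU.1 match, CTTCCTC, 194 bases before the start, and no C/EBP match. One of 3 RefSeq starts of LTF had a C/EBP match, TTGGGCAA, 59 bases upstream (chr3:46464906-46465155, minus strand). The other LTF starts held 1 PU.1 match each. LCN2 also held 1 C/EBP match, TTGCCCAA, while CEACAM8 and OLFM4 held none of the motifs. In the 250 bases before 35116 RefSeq starts, TTNNGCAA occurred in 9.05%, GAGGAAG in 11.2%, the retinoic acid receptor core AGGTCA, which none of the 7 promoters held, in 12.1%, and any of the 3 in 29.0%. The matches shown do not overlap one another and are letters only.

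Without ATRA, MMP9 was the only one of the 10 genes above 1 CPM in these libraries. Counts on LTF, CAMP, BPI and MMP8 lay between 0 and 10 in each of the 4 untreated libraries, and LCN2, CRISP3, PGLYRP1, CEACAM8 and OLFM4, 5 of the 10, had 0 counts in all 4. With ATRA, CRISP3, BPI and MMP8 reached 8.65 to 109 CPM, CAMP stayed under 2 CPM and MMP9 dropped under 2 CPM, as the plot of all members by library shows. In bulk RNA, fewer expressing cells and less RNA per cell cannot be told apart.

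**Figure D1:**
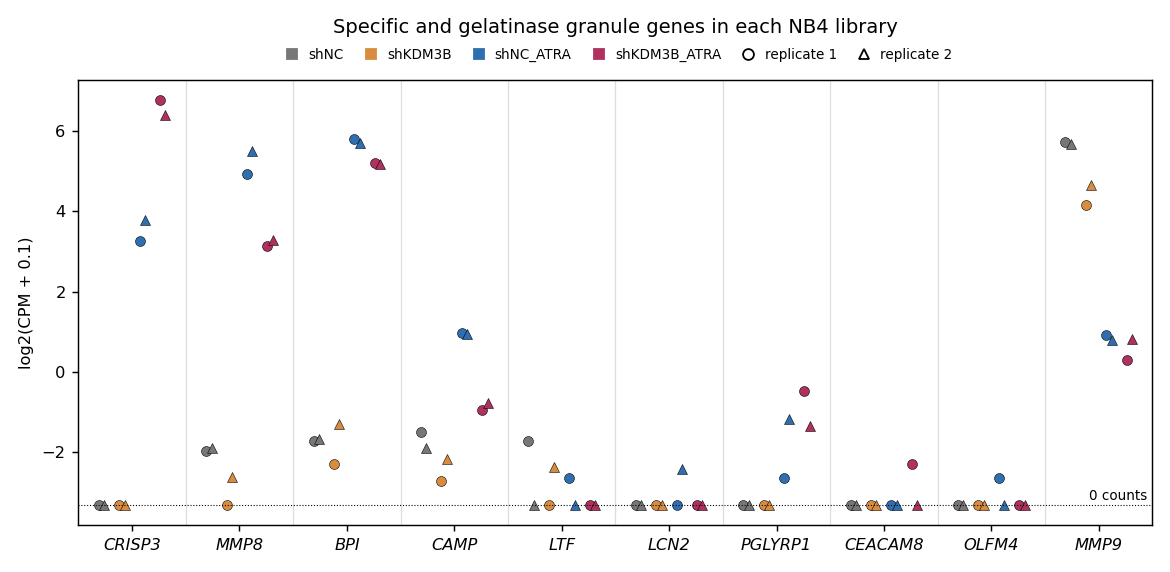
Level of each of the 10 genes in each library, as log2(CPM + 0.1), with colours for the 4 groups, circles for replicate 1 and triangles for replicate 2; the dotted line is 0 counts. CRISP3, MMP8 and BPI stand at 8.65 to 109 CPM in the ATRA libraries and under 1 CPM without ATRA, MMP9 moves the other way, and LTF, LCN2, CEACAM8 and OLFM4 stay at or near 0.

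Levels were also scaled by exon length (RPKM, that is CPM per kilobase of GENCODE v44 exon). The order of the leading genes differed between untreated and ATRA groups, and between shNC_ATRA and shKDM3B_ATRA. MMP9 led in shNC with a mean of 22.2 RPKM and in shKDM3B with 9.22, ahead of CAMP at 0.284 and 0.116. In shNC_ATRA, BPI led with 21.7 RPKM, followed by MMP8 with 11.1, CRISP3 with 5.12, CAMP with 2.45 and MMP9 with 0.730, and neighbours in that order did not overlap between libraries. In shKDM3B_ATRA, CRISP3 led with 43.2 RPKM, then BPI with 14.7 and MMP8 with 2.67. PGLYRP1, CAMP and MMP9 came next at 0.642, 0.602 and 0.595, with overlapping libraries.

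The make-up of the counts on the 10 genes followed this order. MMP9 took 97.8 to 99.1% of them in the untreated libraries. In shNC_ATRA, BPI took 55.9 and 45.3%, MMP8 30.8 and 39.5% and CRISP3 9.51 and 11.8%. In shKDM3B_ATRA, CRISP3 took 69.7 and 63.9%, and BPI 23.3 and 27.1%. The summed level of the 10 genes was 53.6 and 51.6 CPM in shNC, 17.9 and 25.9 in shKDM3B, 99.7 and 115 in shNC_ATRA and 157 and 134 in shKDM3B_ATRA, so that the groups did not overlap.

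**Figure D2:**
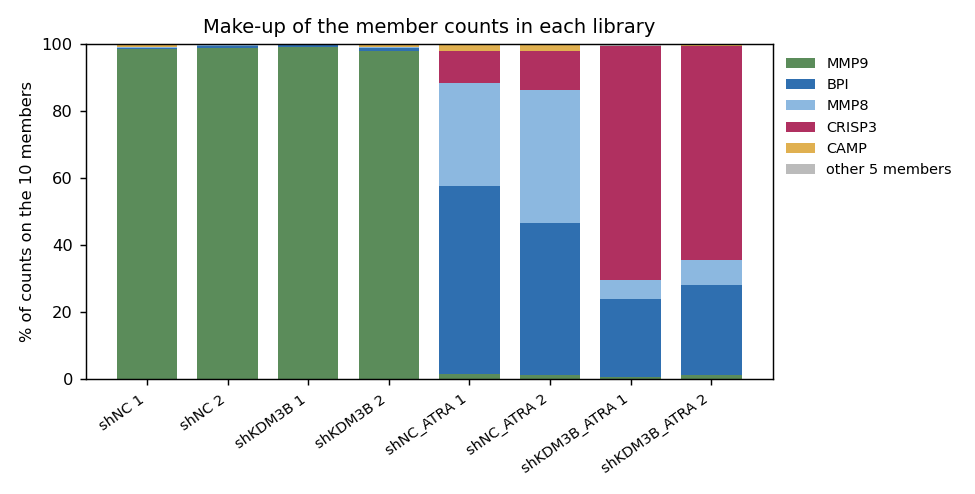
Share of the counts on the 10 genes taken by each gene (stacked, in percent) in each of the 8 libraries. MMP9 fills 97.8 to 99.1% of the untreated bars, BPI and MMP8 most of the shNC_ATRA bars, and CRISP3 69.7 and 63.9% of the shKDM3B_ATRA bars.

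Counts were compared between groups with edgeR's quasi-likelihood test, each pair of groups in its own fit, and p-values were adjusted over all genes of that fit by the Benjamini-Hochberg method. Standard errors of log2 fold changes are written SE. A gene was called at an unadjusted p under 0.05 and a fold change of at least 1.5, the criteria of the study. The adjusted p is given beside each call of a member. Fits of a pair of groups with a library left out take the spread from the group that keeps both and assume that the lone library varies like them, so that their adjusted p-values are no support. LTF, LCN2, PGLYRP1, CEACAM8 and OLFM4 had too few counts to pass the filter of edgeR in any comparison. CRISP3, MMP8, BPI and CAMP passed the low-count filter of the ATRA comparisons only through the group where they were high, so that the numbers of members called there are an account and no support.

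The first comparison asked what ATRA did in control cells. In shNC_ATRA against shNC, 4 of 5 members tested rose and MMP9 fell, where 15% of the 12429 genes tested were called higher and 10.8% lower. All 5 also had an adjusted p under 0.05, which with the same fold was met by 7.84% of genes as higher and 5.06% as lower.

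CRISP3, on chromosome 6 from 49727376 to 49744437 (hg38), had 0 counts in both shNC libraries, which allows up to 0.152 and 0.127 CPM. In shNC_ATRA it had 160 and 158 counts, or 9.48 and 13.6 CPM. Set against 3 counts per library, its level was at least 82.7-fold higher (adjusted p = 0.000823, edgeR). BPI, on chromosome 20 from 38304150 to 38337505, rose from 0.203 and 0.211 CPM to 55.7 and 52.1 CPM. The log2 fold change was 8.09 (SE 0.32, adjusted p = 8.82e-05, edgeR). The ratio of its pooled counts was 261, with a 95% interval for counting error of 137 to 573. Exons of BPI are overlapped over 6.76% of their length by a gene on the same strand and over 3.18% by one on the other strand.

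MMP8, on chromosome 11 from 102711796 to 102727050, went from 3 and 4 counts in shNC to 519 and 528 in shNC_ATRA, that is from 0.152 and 0.169 CPM to 30.7 and 45.4 CPM. Its log2 fold change was 7.95 (SE 0.44, adjusted p = 0.000137, edgeR), a ratio of 228 (110 to 567 for counting error). CAMP, on chromosome 3 from 48223347 to 48225491, had 5 and 4 counts in shNC and 31 and 21 in shNC_ATRA. It rose by 3.20 on the log2 scale (SE 0.58, adjusted p = 0.0128, edgeR), to 1.84 and 1.81 CPM, the smallest rise of the 4 and the lowest level reached. On pooled counts, CAMP rose by 8.79-fold (4.29 to 20.3), far less than BPI or MMP8.

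MMP9, on chromosome 20 from 46008908 to 46016561, stood at 52.8 and 51.0 CPM in shNC and at 1.78 and 1.63 CPM in shNC_ATRA. It fell by 4.80 on the log2 scale (SE 0.26, adjusted p = 0.000135, edgeR), which is 30.1-fold lower on pooled counts. SLC12A5-AS1, a gene on the other strand, covers 18.4% of the exonic bases of MMP9, and nothing in the sources used here says that reads were counted by strand. When single libraries were left out, all 5 members stayed called by the unadjusted p, with adjusted p-values of up to 0.408 (CAMP, edgeR), at log2 fold changes of 8.03 to 8.11 for BPI, 7.59 to 8.22 for MMP8, 2.92 to 3.46 for CAMP and -4.84 to -4.79 for MMP9. Those without shNC_ATRA replicate 2 compare libraries with alike shares of reads outside genes. The untreated and treated libraries still differ in the names counted (56470 and 56609), and the fits used the 37526 common to both.

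The same comparison in knockdown cells, shKDM3B_ATRA against shKDM3B, tested 4 members, of which 3 rose and MMP9 fell. Here 24% of the 12756 genes tested were called higher and 18.3% lower, and with an adjusted p under 0.05 these were 23% and 17.3%. Since both treated libraries have about 50% of reads outside genes and both untreated ones under 10%, ATRA and this difference cannot be told apart in this comparison.

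CRISP3 went from 0 counts in both shKDM3B libraries to 1063 and 880 counts in shKDM3B_ATRA, at least 795-fold higher against 3 counts per library (adjusted p = 9.24e-08, edgeR). BPI went from 2 and 10 counts to 356 and 373 counts, a log2 fold change of 7.37 (SE 0.32, adjusted p = 1.95e-07, edgeR). MMP8 went from 0 and 2 counts to 84 and 100 counts, a ratio of 241 with an interval of 65.8 to 2005 for counting error (adjusted p = 3.76e-06, edgeR). MMP9 went from 17.8 and 25.3 CPM to 1.13 and 1.65 CPM, a log2 fold change of -3.86 (SE 0.31, adjusted p = 9.94e-06, edgeR), or 16.1-fold lower. CAMP did not pass the filter of edgeR, with 1 and 4 counts before and 4 and 5 after, a ratio of 4.72 (1.42 to 17.9 for counting error). DESeq2 gave it an adjusted p of 0.303. When all 8 libraries were fitted together, CAMP passed the filter through shNC_ATRA, where it is high. It was then called higher in shKDM3B_ATRA (2.24 on the log2 scale, SE 0.73, unadjusted p = 0.0179, adjusted p = 0.0580, edgeR). All 4 members tested stayed called whichever library was left out.

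**Figure D3:**
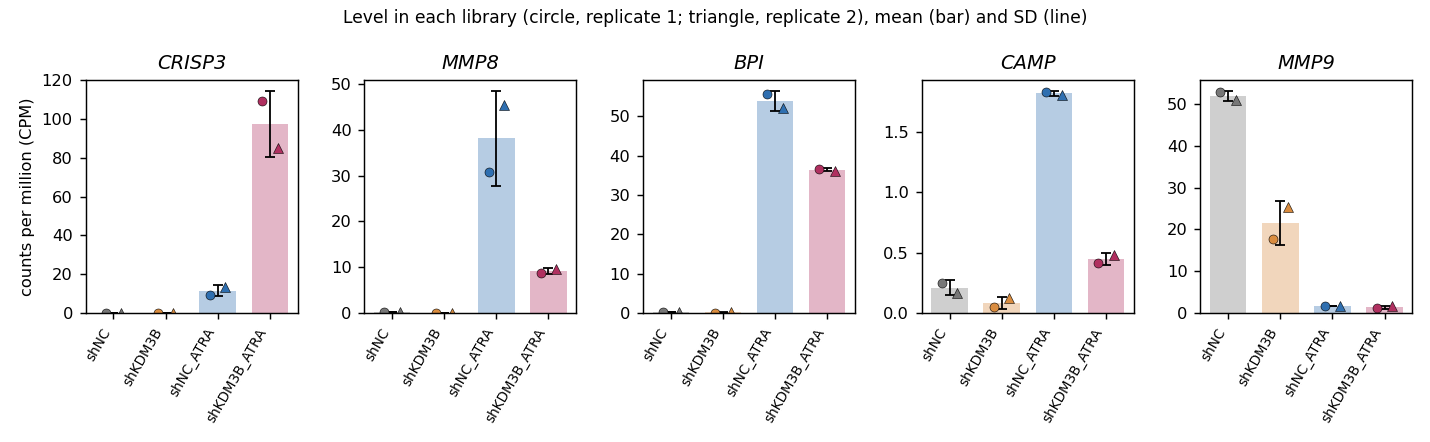
Level in CPM of the 5 members that could be tested, on a scale of its own for each gene, in the 4 groups; bars are means, lines the SD of 2 libraries, circles replicate 1 and triangles replicate 2. In shKDM3B_ATRA, CRISP3 stands above its shNC_ATRA libraries (97.4 against 11.5 CPM on average) while MMP8, BPI and CAMP stand below theirs.

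Without ATRA, the knockdown could be tested on 1 member. MMP9 stood at 52.8 and 51.0 CPM in shNC and at 17.8 and 25.3 CPM in shKDM3B, and the groups did not overlap. Its log2 fold change was -1.24 (SE 0.21, unadjusted p = 0.000325, adjusted p = 0.105, edgeR), so MMP9 was called lower, as were 3.53% of the 13855 genes tested, with 7.01% called in either direction. DESeq2, the tool of the study, gave -1.24 with an adjusted p of 7.69e-05. MMP9 is among the genes that the study picked for a lower level with the knockdown in these libraries, so its direction is not independent evidence. When single libraries were left out, it ran from -1.54 without shKDM3B replicate 2 to -1.005 without shKDM3B replicate 1. The summed level of 5 eosinophil markers, all of them above 3 counts in every group, was 152 to 292 CPM in shNC, 77.1 to 119 in shKDM3B, 31.9 to 50.3 in shNC_ATRA and 9.58 to 17.4 in shKDM3B_ATRA. Most of the untreated sum was EPX (eosinophil peroxidase), and between shNC_ATRA and shNC 3 of the 5 fell while CLC and CCR3 rose, by 5.51 and 4.58 on the log2 scale. Whether these marker levels and the level of MMP9 are linked was not tested.

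CAMP (5 and 4 counts in shNC, 1 and 4 in shKDM3B), BPI (4 and 5, then 2 and 10) and MMP8 (3 and 4, then 0 and 2) did not pass the filter of edgeR in untreated cells. DESeq2 gave them unadjusted p-values of 0.509, 0.984 and 0.362 in that order. The ratio of pooled counts of shKDM3B to shNC was 0.459 for CAMP (0.121 to 1.53 for counting error), 1.102 for BPI (0.426 to 2.96) and 0.236 for MMP8 (0.0239 to 1.24). These intervals all include 1. When all 8 libraries were fitted together, MMP8, which then passed the filter through the ATRA libraries, was called lower in shKDM3B (-1.90 on the log2 scale, SE 0.77, unadjusted p = 0.0489, adjusted p = 0.682, edgeR) on 7 counts against 2, and CAMP and BPI were not called.

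The knockdown under ATRA split the members. Of 5 tested in shKDM3B_ATRA against shNC_ATRA, CRISP3 was called higher, as were 2.42% of the 14281 genes tested. CAMP, BPI and MMP8 were called lower, as were 4.37% of genes, and MMP9 was not called. CAMP passed the filter here through shNC_ATRA, the group where it is high, so that its call is an account and no support. No gene of this comparison had an adjusted p under 0.05 in edgeR, with 1383 at an unadjusted p under 0.05, whereas DESeq2 gave 452.

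CRISP3 stood at 9.48 and 13.6 CPM in shNC_ATRA and at 109 and 85.3 CPM in shKDM3B_ATRA, and no library of one group reached the other. The log2 fold change was 3.05 (SE 0.29, unadjusted p = 0.000691, adjusted p = 0.502, edgeR), or 8.70-fold on pooled counts (7.72 to 9.82 for counting error). In DESeq2 it was also 3.05, with an adjusted p of 1.29e-18. It was 2.79 without shNC_ATRA replicate 1, and over all libraries left out it ran from 2.79 to 3.35.

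MMP8 went the other way, from 30.7 and 45.4 CPM in shNC_ATRA to 8.65 and 9.69 CPM in shKDM3B_ATRA. The log2 fold change was -2.08 (SE 0.30, unadjusted p = 0.00313, adjusted p = 0.502, edgeR), which is 3.998-fold lower on pooled counts. DESeq2 gave -2.08 with an adjusted p of 4.14e-06. It was -2.35 without shNC_ATRA replicate 1, and the other libraries left out gave values up to -1.75.

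CAMP had 31 and 21 counts in shNC_ATRA and 4 and 5 in shKDM3B_ATRA, or 1.84 and 1.81 against 0.412 and 0.485 CPM. Its log2 fold change was -2.02 (SE 0.49, unadjusted p = 0.0172, adjusted p = 0.502, edgeR). The call was lost without shKDM3B_ATRA replicate 1 (-1.90, unadjusted p = 0.132, adjusted p = 1.00, edgeR) and without shKDM3B_ATRA replicate 2 (-2.15, unadjusted p = 0.108, adjusted p = 0.999, edgeR). DESeq2 gave -2.05 with an adjusted p of 0.342. The groups did not overlap in CAMP.

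BPI stood at 55.7 and 52.1 CPM in shNC_ATRA and at 36.7 and 36.1 CPM in shKDM3B_ATRA. The log2 fold change of -0.59 (SE 0.12, unadjusted p = 0.0109, adjusted p = 0.502, edgeR) lay just past the fold threshold, 0.585 on that scale, and DESeq2 gave -0.59 with an adjusted p of 0.0405. The call was lost with scaling by library size alone (-0.57, adjusted p = 0.513, edgeR) and with the likelihood ratio test of edgeR (-0.59, unadjusted p = 0.106, adjusted p = 0.999). Without shNC_ATRA replicate 1 it was -0.56 and missed the fold threshold. Without shKDM3B_ATRA replicate 1 or 2 it was -0.59 in both cases with an unadjusted p of 0.110 and 0.108 (adjusted p = 1.00 and 0.999, edgeR). MMP9 was at 1.78 and 1.63 CPM in shNC_ATRA and at 1.13 and 1.65 CPM in shKDM3B_ATRA, with overlapping libraries and a log2 fold change of -0.32 (SE 0.45, adjusted p = 0.847, edgeR). Without shNC_ATRA replicate 1, CRISP3 was called higher and CAMP and MMP8 lower, in a fit with 1 control library that called 8.78% of 14709 genes higher and 8.19% lower. Over the same groups the summed monocyte markers went from 66.9 to 113 CPM in shNC_ATRA to 16.2 to 27.9 CPM in shKDM3B_ATRA, with CD163 at 0, and 2 of the 3 tested were called lower. Of the promyelocyte markers, MPO was called higher, whereas CD33 (-0.05 on the log2 scale) and CTSG (-0.79) were not called, KIT had 2 and 2 counts and then 0, and ELANE was at 0. AZU1 had 2 and 2 counts in shNC_ATRA and 14 and 3 in shKDM3B_ATRA, and PRTN3 0 and 8 and then 11 and 4. Their part in the changes of CRISP3, MMP8, BPI and CAMP was not tested.

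**Figure D4:**
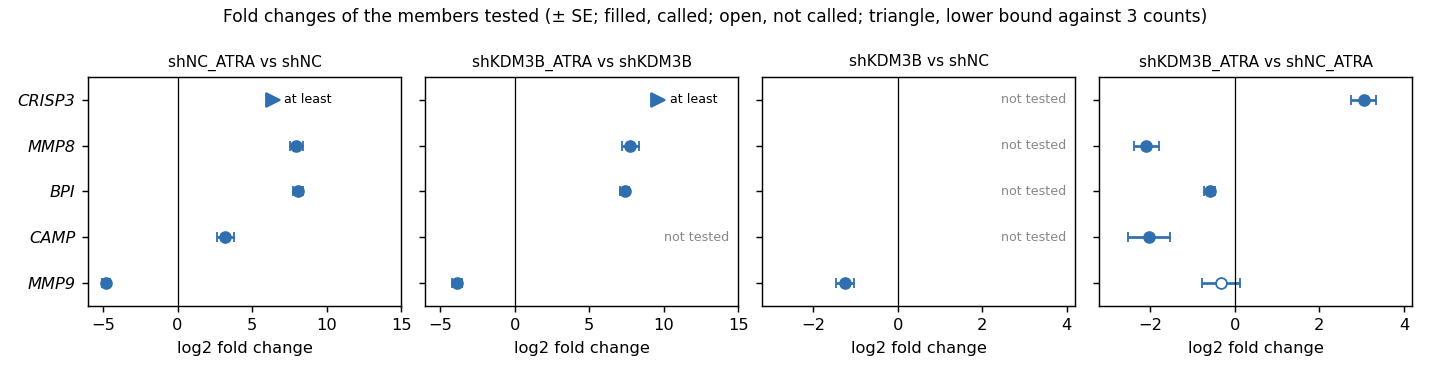
Log2 fold change of each member tested in the 4 comparisons, with bars for 1 SE, filled points for calls and open points for none; triangles are lower bounds for CRISP3, set against 3 counts per library. CRISP3, MMP8 and BPI were higher and MMP9 lower with ATRA than without it in both lines. In shKDM3B, ATRA cannot be told apart from the share of reads outside genes. In shKDM3B_ATRA against shNC_ATRA, CRISP3 was at 3.05 and MMP8 at -2.08.

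Whether the response to ATRA differed between the lines was tested with an interaction term in a fit of all 8 libraries. MMP9 was the 1 member called, as were 3.99% of the 13528 genes tested in either direction, with a fall under ATRA that was smaller in shKDM3B by 0.92 on the log2 scale (SE 0.39, unadjusted p = 0.0475, adjusted p = 1.00, edgeR). DESeq2 gave 0.93 with an unadjusted p of 0.0861, and the call was kept in 2 of 8 fits with a library left out (those without shKDM3B replicate 2 and without shKDM3B_ATRA replicate 1), at values between 0.61 and 1.27 over the 8. For BPI the difference was -0.72 (SE 0.52, unadjusted p = 0.227, adjusted p = 1.00, edgeR), and without shKDM3B replicate 2, which holds 10 of the 12 BPI counts of that group, it was 0.40. For CAMP it was -0.93 (SE 1.04, adjusted p = 1.00, edgeR). CRISP3 had 0 counts in all untreated libraries and MMP8 0 and 2 counts in shKDM3B, so that their fitted difference in response depends on how a tool treats counts near 0. DESeq2 gave 3.27 for CRISP3 (SE 2.09, unadjusted p = 0.117, adjusted p = 0.999) and -0.0029 for MMP8 (SE 1.28, unadjusted p = 0.998, adjusted p = 1.00). No gene passed the adjusted threshold in edgeR, with 607 at an unadjusted p under 0.05, and DESeq2 gave 27.

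The other 5 members were near 0 in a total of 144369153 counts over the 8 libraries. LTF, the classical product of specific granules, on chromosome 3 from 46435645 to 46485234, had 8 counts in all. Its counts were 4 and 0 in shNC, 0 and 3 in shKDM3B, 1 and 0 in shNC_ATRA and 0 and 0 in shKDM3B_ATRA. LCN2 had 1 count, in shNC_ATRA replicate 2. OLFM4 had 1, in shNC_ATRA replicate 1, and CEACAM8 had 1, in shKDM3B_ATRA replicate 1. A count of 0 allows up to 0.0909 to 0.309 CPM over the libraries, and no change of these 4 genes could be seen at that depth.

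PGLYRP1 had 0 counts in the 4 untreated libraries, 1 and 4 in shNC_ATRA and 6 and 3 in shKDM3B_ATRA. Its level was 0.202 CPM on average in shNC_ATRA and 0.454 in shKDM3B_ATRA, and the 2 treated groups overlapped. The level in shKDM3B_ATRA was at least 3.71-fold higher than 3 counts per untreated library, and that in shNC_ATRA at least 1.45-fold. DESeq2, which tests genes that the filter of edgeR leaves out, gave the response in shKDM3B an adjusted p of 0.0339. For the response in shNC it gave an unadjusted p of 0.247 and no adjusted p. The difference between the responses had an unadjusted p of 0.756 (DESeq2). All counts of PGLYRP1 came from treated libraries, so that these values are an account and no support. In shKDM3B, ATRA cannot be told apart from the share of reads outside genes.

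Much of the other cargo of the same granules was expressed, although CHIT1 had 0 counts in all 8 libraries and CD177 had 2 in all. Of 20 further genes of specific and gelatinase granules, 18 could be tested in shNC_ATRA against shNC. Of these 9 rose and 5 fell, where 15% of all genes tested were called higher and 10.8% lower. The median log2 fold change was 1.32 beside 0.02 over all genes tested. Some of the 18, ARG1 and FOLR3 among them, passed the filter only through the group where they were high, so that these numbers are an account and no support. With shNC_ATRA replicate 1 left out, 8 of 17 rose and 4 fell, with a median of 0.78, where 21.4% of all genes tested were called higher and 17% lower. ORM1 (orosomucoid, an acute phase protein) rose from 0.355 and 0.380 CPM to 13.5 and 8.86 CPM. FOLR3 (a secreted folate receptor) and ARG1 (arginase) were at 0 counts in shNC and rose to at least 28.1-fold and 4.92-fold above 3 counts per library, ARG1 to no more than 0.770 CPM. PTX3 (pentraxin 3), TCN1 (haptocorrin, which binds vitamin B12) and CHI3L1 (a chitinase-like protein) fell. PTX3 went from 56 and 61 counts to 1 and 2, and TCN1 from 15 and 18 counts to 0 and 2 (adjusted p = 0.108, edgeR). CHI3L1 went from 126 and 68.9 CPM to 23.6 and 14.9 CPM, a log2 fold change of -2.22. Of the 14 tested in shKDM3B_ATRA against shKDM3B, 7 rose and 5 fell, where 24% of all genes tested were called higher and 18.3% lower. The median was 0.68 beside 0.04.

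Under ATRA, 4 of 13 genes of that list were called lower in shKDM3B_ATRA than in shNC_ATRA and none higher. Of all genes tested, 4.37% were called lower and 2.42% higher. The median of the list was -0.37 beside 0.03. The adjusted p of the genes named from this and the following lists as called between the lines was 0.502 to 0.508 under ATRA and 0.105 to 0.424 without it (edgeR). Leaving out shNC_ATRA replicate 1 gave a median of -0.41 beside 0.007 over all genes tested. ORM1 was at 1.44 and 1.74 CPM (log2 fold change -2.83, SE 0.38, adjusted p = 0.502, edgeR). CYBB and CYBA, the membrane subunits of the NADPH oxidase, were lower by 1.03 and 0.84 on the log2 scale. Without ATRA, 14 were tested, and ABCA13 (a lipid transporter) was called higher by 1.78 while ITGAM (the integrin chain CD11b) and CYBB were lower at -0.90 and -0.84. Of all genes tested there, 7.01% were called in either direction and 3.53% lower.

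Azurophil cargo, which precedes these genes in normal development, moved in both directions. In shNC_ATRA against shNC, 4 of 12 tested rose and 5 fell, where 15% of all genes tested were called higher and 10.8% lower. The median of the list was -0.20, and 0.45 without shNC_ATRA replicate 1. The defensins DEFA3 and DEFA4 rose by 7.20 and 6.03 on the log2 scale and DEFA1 from 5 and 0 counts to 27 and 64, and since DEFA1 and DEFA3 are near-identical copies their reads cannot be told apart with certainty. The serine proteases CTSG and PRSS57 and the ribonuclease RNASE3 fell, with log2 fold changes of -5.04, -3.57 and -2.85. Under ATRA, MPO (myeloperoxidase) at 1.99 and PRSS57 at 1.33 were called higher in the knockdown, RNASE2 lower at -1.25, and the other 8 of 11 were not called. Of all genes tested there, 2.42% were called higher and 4.37% lower. MPO stood at 705 and 575 CPM in shNC_ATRA and at 3059 and 2142 CPM in shKDM3B_ATRA. Without ATRA, 3 of 12 were called higher in the knockdown (DEFA3 at 1.305, DEFA4 at 1.08 and MPO at 0.89) and RNASE2 was called lower at -0.79. Beside these, 7.01% of all genes tested were called in either direction and 3.53% lower. Without shNC_ATRA replicate 1, the median of the list under ATRA went from -0.29 to 0.08. DEFA3 stood at 89.1 and 241 CPM in shNC_ATRA and at 115 and 116 CPM in shKDM3B_ATRA, so that its direction depended on the control library.

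Receptors of secretory vesicles and of the mature neutrophil surface could be tested for 6 of 10 genes. All 6 rose in shNC_ATRA against shNC, 5 of them with an adjusted p under 0.05, with a median of 2.83. Of all genes tested there, 15% were called higher, and 7.84% with an adjusted p under 0.05. The formyl peptide receptor FPR1 rose by 3.26 on the log2 scale, from 5 and 7 counts to 36 and 33, and FPR2 went from 2 and 2 counts to 47 and 43. In shKDM3B_ATRA against shNC_ATRA, 3 of these 6 were called lower, as were 4.37% of all genes tested, and none higher, with a median of -1.46. Among these were FPR1, with 0 and 3 counts in shKDM3B_ATRA, and CSF3R, the receptor of granulocyte colony-stimulating factor, at -0.89. All 6 were called lower without shNC_ATRA replicate 1, in the fit with 1 control library that called 8.19% of all genes lower.

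**Figure D5:**
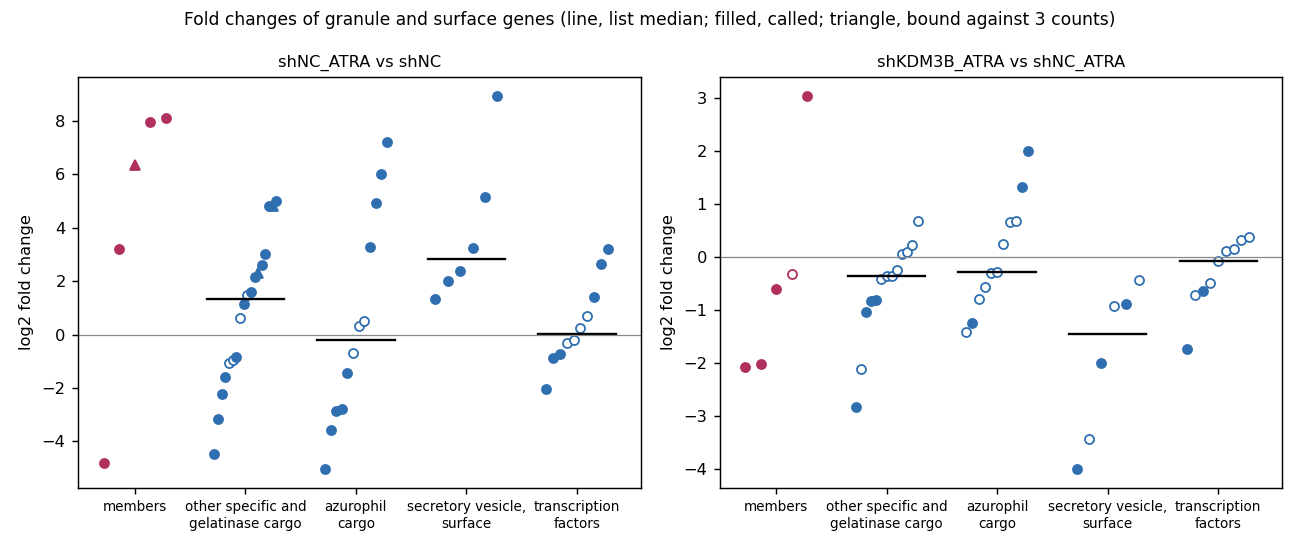
Log2 fold change of each gene tested, by list, for ATRA in control cells (left) and for the knockdown under ATRA (right); filled points are calls, lines the median of a list and triangles bounds against 3 counts per library. The surface receptors lie above 0 on the left and below 0 on the right, whereas the 5 members tested (in red) and the azurophil genes lie on both sides.

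Among 10 transcription factors of granule genes, CEBPE, which encodes C/EBPε, was at 51.7 and 74.9 CPM in shNC and at 413 and 313 CPM in shNC_ATRA, a log2 fold change of 2.64 (SE 0.27, adjusted p = 0.00135, edgeR). It was at 62.2 and 65.7 CPM in shKDM3B and at 253 and 276 CPM in shKDM3B_ATRA, and the difference to shNC_ATRA was not called (-0.48, SE 0.18, unadjusted p = 0.0591, adjusted p = 0.520, edgeR). In those 4 ATRA libraries, with 253 to 413 CPM of CEBPE, LTF and LCN2 had 0 or 1 counts each. CEBPB rose from 16.9 and 17.0 CPM to 177 and 110 CPM with ATRA, and stood at 43.2 and 44.9 CPM in shKDM3B_ATRA, lower by 1.73 on the log2 scale (SE 0.27, unadjusted p = 0.00392, adjusted p = 0.502, edgeR). CEBPD was lower there by 0.65, a call lost without shNC_ATRA replicate 1. SPI1, which encodes PU.1, rose by 1.39 with ATRA in control cells, whereas CEBPA, GFI1 and IRF8 fell, with log2 fold changes of -0.89, -0.73 and -2.03 (adjusted p = 0.0472, 0.0587 and 0.0843, edgeR). The median of the 10 factors in that comparison was 0.03. The calls under ATRA were 2 of 9 factors tested, both lower, with a median of -0.07, where 4.37% of all genes tested were called lower.

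The partners and relatives of the members moved in both directions with ATRA. Of 15 proteases, inhibitors, receptors and ligands that act on or with them, TIMP1 and TIMP2, inhibitors of matrix metalloproteinases, rose with ATRA in control cells by 0.74 and 0.95 on the log2 scale (adjusted p = 0.140 and 0.0670, edgeR), and HSPG2, a heparan sulphate proteoglycan, fell by 3.23. In all 3 of 7 rose and 3 fell there, beside 15% of all genes called higher and 10.8% lower. Their median was -0.70, and 0.76 without shNC_ATRA replicate 1. None of 4 tested was called under ATRA between the lines, with a median of -0.29 that was 0.08 without shNC_ATRA replicate 1. Without ATRA, 1 higher (HSPG2 at 0.62) and 1 lower (TIMP1 at -0.62) of 6 were called, beside 7.01% of all genes in either direction. Among 18 relatives by family, CEACAM1 rose from 0 and 1 counts in shNC to 265 and 120 counts in shNC_ATRA, where CEACAM8 had 0 in both libraries. MMP2, a gelatinase like MMP9, fell by 4.85 on the log2 scale with ATRA in control cells, from 27.1 and 33.1 CPM to 0.888 and 1.03 CPM. In all 2 of 7 relatives rose and 2 fell there, beside 15% and 10.8% of all genes, with a median of 0.01. Under ATRA, CEACAM1 at -1.36 was the 1 relative of 6 tested that was called between the lines, where 4.37% of all genes tested were called lower. MMP19, with 16 and 128 counts in the shNC_ATRA libraries, was also called lower without shNC_ATRA replicate 1.

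The genes whose levels were most like those of the 4 members that reached 10 CPM in some group were sought over the 8 libraries, by Pearson correlation of log2(CPM + 0.5) among 9760 genes with a mean of at least 5 CPM. This is a description, since the libraries share their groups. For CRISP3 they were UPRT, STXBP5 and LPGAT1 (r of 0.993 to 0.988), all of them expressed already without ATRA, with UPRT at 14.1 to 15.7 CPM untreated, 20.8 and 22.5 CPM in shNC_ATRA and 28.4 and 27.7 CPM in shKDM3B_ATRA. For BPI they were TGM2 (transglutaminase 2), PPFIA4 and AP000439.3 (r of 1.00 to 0.998), and for MMP8 they included TNRC6C-AS1 and P2RY13 (r of 0.994 and 0.993). P2RY13, a purinergic receptor, was at 41.5 and 51.7 CPM in shNC_ATRA and at 6.18 and 6.30 CPM in shKDM3B_ATRA. For MMP9 they were GNA12, JUP and PQLC1 (r of 0.995 to 0.993), which fell with ATRA less steeply than MMP9, JUP from 88.5 and 97.8 CPM in shNC to 29.7 and 32.9 CPM in shNC_ATRA.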

How the data were processed

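Total RNA of 8 NB4 libraries was sequenced, and the authors trimmed the reads, aligned them to hg38 with HISAT2 and deposited whole-number counts per gene from HTSeq, without normalization. The submitters' processing notes also name Picard, SAMtools and DESeq2, with no versions. The 5 summary lines of HTSeq were left out of totals. Groups came from the labels. The 10 members, the lists beside them and the motifs were chosen with earlier results of these data known. Genes named from a list were its called genes, up to 3 in each direction and comparison by size of change; all transcription factors could be named, and for members over 10 CPM the 3 most alike genes. Some genes that this rule names are not reported here.

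CPM were counts per 1000000 counts on genes. Tests used edgeR 4.0.16 in R 4.3.3 (filterByExpr, TMM, quasi-likelihood), with DESeq2 1.42.0 as an alternative. The other alternatives were other scalings and filters, a likelihood ratio test, adjusted p-values, 1 fit of all 8 libraries, a replicate block and each library left out. List counts without shNC_ATRA replicate 1 were added after seeing the data. The procedure was tested on simulated data. Intervals (exact, 95%) and floors of 3 counts cover counting error only, since reads carry no molecular identifiers. Positions are from GENCODE 44, and scripts ran under Python 3.11.15 with pandas 2.3.3 and scipy 1.17.1. With 2 libraries a group, a two-sided permutation test cannot go below 0.333, and 9708739 to 33017787 counts per library set the precision.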

Additional observations from a re-analysis of the deposited data

Results flagged for a closer look

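The fall of MMP9 under ATRA was smaller in shKDM3B cells than in shNC cells by 0.92 on the log2 scale (SE 0.39), an interaction with an unadjusted p of 0.0475 and an adjusted p of 1.00 in edgeR. It was picked out because the difference between the lines itself passed the unadjusted threshold. MMP9 fell in both lines, with log2 fold changes of -4.80 in shNC and -3.86 in shKDM3B, to levels of 1.13 to 1.78 CPM that overlapped between the lines.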

How the results depend on the processing

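Of 261 values of members' fold changes under other settings, 237 kept their direction and side of the threshold, 23 lost the call and 1 turned. BPI's difference in response between the lines went from -0.72 to 0.40 without shKDM3B replicate 2 (-1.16 to 0.40 over all libraries left out).

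Without ATRA, adjusted p-values left 3 genes and 0 members called, 1 fit of all 8 libraries called 2 members (MMP9 and MMP8), and leaving out a library gave 943 to 1650 genes (1650 without shNC replicate 2). Under ATRA, between the lines, the likelihood ratio test called 641 genes and adjusted p-values 0 genes and 0 members. Leaving out a library gave 134 to 5360 genes (2496 and 5360 without shNC_ATRA replicate 1 or 2, 134 and 284 without shKDM3B_ATRA replicate 1 or 2) and 2 to 4 members (2 without either shKDM3B_ATRA replicate). For ATRA in shNC, adjusted p-values left 1604 genes and leaving out a library gave 1462 to 5142 (1578 and 1462 without shNC replicate 1 or 2, 5142 without shNC_ATRA replicate 1). For the difference in response, 941 genes were called with no filter, 0 with adjusted p-values and 285 to 2432 with a library left out (345 without shNC replicate 1, 2432 without shNC_ATRA replicate 2, 285 without shKDM3B_ATRA replicate 1). No member was called (0) with no filter, DESeq2, the likelihood ratio test or adjusted p-values, and 0 to 1 with a library left out. The causes were not tested.

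Same-numbered libraries deviated together with a correlation of 0.389 in shKDM3B against shNC. It was 0.0260 in shKDM3B_ATRA against shNC_ATRA, -0.0751 for ATRA in shNC and 0.184 for ATRA in shKDM3B. The main fits did not pair the libraries by number, also without ATRA, where the deviations were partly shared. With the replicate block, 525 genes instead of 969 were called between the lines under ATRA, and CAMP lost its call (-2.03, unadjusted p = 0.0647, adjusted p = 0.781, edgeR). Without ATRA the block called 1242 genes instead of 971, and MMP9 stayed called (-1.26, unadjusted p = 2.24e-08, adjusted p = 9.19e-06, edgeR). Apart from CAMP, no member lost or gained a call with the block.

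Depth limits LTF, LCN2, PGLYRP1, CEACAM8 and OLFM4 throughout, and CAMP, BPI and MMP8 without ATRA.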
